A study of Homo sapiens with 11 samples.

Results

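Rows for small noncoding RNAs were examined in 2 human cancer lines, MDA-MB-231 from breast and SKOV3 from ovary, each transfected with a mimic of miR-365a-3p or with a control miRNA. A row was taken when its symbol began with SNORD, SNORA, SCARNA, RNU or MIR and a digit, and when its deposited value was above 8 in at least 2 of the 11 arrays. There were 37 such rows among 886 rows with a symbol of this kind and 31325 rows in all. The rows were thus selected on their deposited levels, and the levels are given as a description. MDA-MB-231 cells with miR-365a-3p, MDA-MB-231 cells with control miRNA and SKOV3 cells with miR-365a-3p had 3 arrays each, and SKOV3 cells with control miRNA had 2. The labels date the arrays to 48 h after transfection, the series description gives 24 h, and the study's methods call the ovarian line SKOV3.ip1. Nothing says that replicates were separate cultures, so the p-values cover only the spread between arrays.

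Small nucleolar RNAs (snoRNAs) guide enzymes to bases of other RNAs. SNORD genes encode box C/D snoRNAs, which direct ribose methylation, and SNORA genes encode box H/ACA snoRNAs, which direct pseudouridylation, mostly of ribosomal RNA. SCARNA genes encode the related RNAs of Cajal bodies, which modify spliceosomal RNAs, and MIR genes encode microRNA precursors. RNU genes encode small nuclear RNAs, and the RNU rows taken here are named for the spliceosomal RNAs U1 and U6. Most human snoRNAs are cut from introns of host genes, whereas U1, U6, SNORD13 and the SNORD3 (U3) genes have promoters of their own. The labelling kit primes from poly(A) tails, which mature snoRNAs and miRNAs lack, and probe sequences were not used here, so which RNA gave the signal of a row was not tested. U1, U6 and U3 have many near-identical gene copies, and the rows RNU1A3, RNU6-1, RNU6-15 and SNORD3D cannot be assigned to 1 copy. RNA came from whole cultures, in which fewer cells and less RNA per cell cannot be told apart.

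The mature sequences below show the transfected miRNA and the products of the 4 MIR rows, with the seed (bases 2 to 8) in capitals. No pair of the 6 sequences shared a seed, and the sequences of the other rows were not compared. The sequences of miR-365a-3p, miR-1228 and miR-586 are from RefSeq on GRCh38.p14, at chr16:14309340-14309361 on the plus strand, at chr12:57194504-57194524 and chr12:57194555-57194574 on the plus strand, and at chr6:45197734-45197755 on the minus strand. Those of miR-1974 and miR-1978 are from the study's own list of mimics. Both entries were later withdrawn from the miRNA registry, because the sequences lie in a mitochondrial tRNA and a mitochondrial ribosomal RNA.
miR-365a-3p: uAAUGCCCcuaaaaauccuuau
miR-1974: uGGUUGUAguccgugcgagaaua
miR-1978: gGUUUGGUccuagccuuucua
miR-1228-5p: gUGGGCGGgggcaggugugug
miR-1228-3p: uCACACCUgccucgcccccc
miR-586: uAUGCAUUguauuuuuaggucc

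Classes differed in how many of their rows stood above 8. Of the SNORD rows 17 of 174 did (9.77%), of the SNORA rows 11 of 102 (10.8%), of the SCARNA rows 2 of 24 (8.33%) and of the RNU rows 3 of 20 (15%). Of the MIR rows 4 of 566 did (0.707%), against 8930 of all 31325 rows (28.5%). The arrays had medians from 7.35 to 7.41, so 8 is close to the floor of the values. The MIR rows above it were MIR1974, MIR1978, MIR1228 and MIR586.

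Most of the 37 rows were dim. The highest means belonged to MIR1978, RNU6-15, RNU6-1, MIR1974 and SNORD16. In each array, between 15 and 27 of the 37 stood above 8, and 9 rows did so in all 11 arrays: MIR1978, RNU6-1, RNU6-15, SCARNA10, SNORA18, SNORA61, SNORA70, SNORD36A and SNORD80. The 7 rows RNU1A3, SNORA24, SNORA32, SNORD13, SNORD25, SNORD3D and SNORD73A passed 8 in miR-365a-3p arrays alone, and SCARNA13 and SNORA76 in control arrays alone, so their place in the set already rests on a difference between treatments, and their changes are given with no p-value. The second highest deposited values of the rows just inside the threshold were 8.01 for SCARNA13, RNU1A3 and SNORD36C. Those just outside were 7.99 for SNORD52, 7.98 for SNORA10 and 7.97 for RNU1-5.

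**Figure D1:**
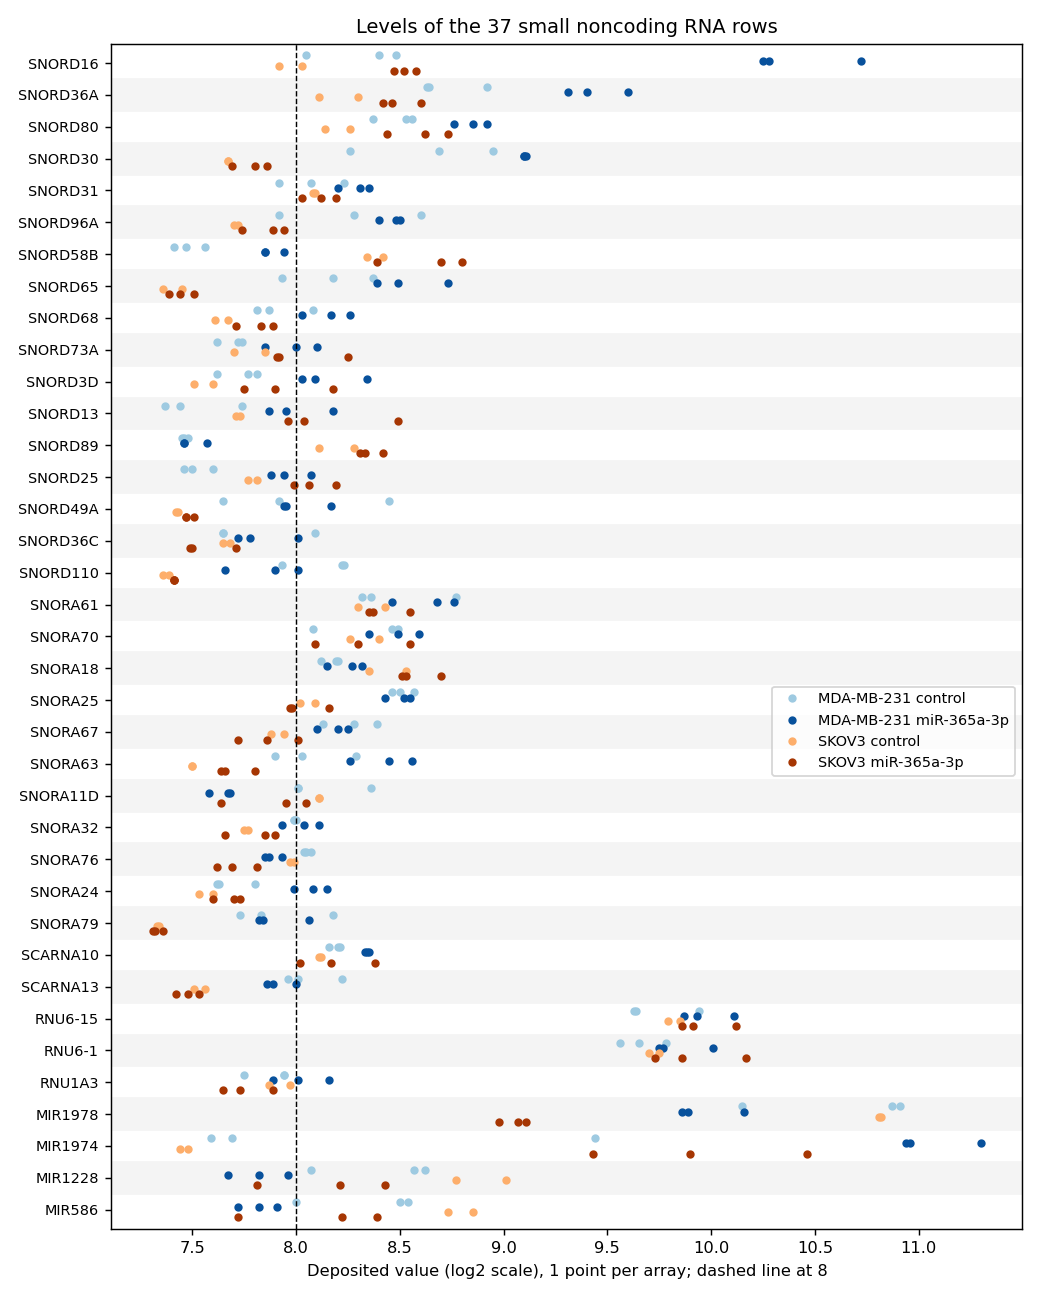
Deposited values (log2 scale, horizontal axis) of the 37 rows by class, with 1 point per array coloured by group and a dashed line at 8. MIR1974 and SNORD16 spread widest between groups, the RNU6 rows stay near 10 in all groups, and most other rows lie between 7.4 and 8.6.

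The arrays did not share a distribution of deposited values. The 75th percentile ran from 7.56 to 7.80 with miR-365a-3p and from 7.86 to 8.04 with control miRNA. Values were therefore quantile normalized across the 11 arrays, and the deposited scale is given beside each count and beside each row whose call it changes, since the rows lie where the step moves values most. Over the 8930 rows above 8, the median difference of miR-365a-3p minus control in MDA-MB-231 cells was 0.03 after normalization and -0.17 on deposited values, and in SKOV3 cells 0.07 and -0.10. Of the line markers, ERBB2, the receptor gene amplified in SKOV3, had a normalized level of 7.61 ± 0.07 (SD, n = 3) in controls of the breast line and 10.86 ± 0.07 (SD, n = 2) in those of the ovarian line. EPCAM and PAX8 were also higher in SKOV3 controls by limma, whereas KRT7, VIM and CD44 missed the threshold. Of the markers of other cells, PTPRC and PECAM1 differed by 0.01 each between the controls, and the fibroblast marker COL1A1 was higher by 1.06 in SKOV3 controls.

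In MDA-MB-231 cells, the counts of rows that rose with miR-365a-3p depended on the scale. After normalization, 24 of the 37 rows rose and 1 fell by limma with Benjamini-Hochberg adjustment over all rows (adjusted p under 0.05), where 14.4% of all rows rose and 11.7% fell, and among rows above 8, 33.8% rose and 29.7% fell. All 7 rows that had entered through miR-365a-3p arrays alone were among the 24, and of the 28 rows above 8 in arrays of both treatments, 16 rose and 1 fell. The 24 were 13 of 17 SNORD rows, 8 of 11 SNORA rows, SCARNA10, RNU1A3 and MIR1974, and the row that fell was MIR1978. Of these, RNU1A3 entered through miR-365a-3p arrays alone, MIR1974 was singled out for its rise, and SCARNA10 missed the threshold on deposited values. The median change was 0.50 over the 37, 0.67 over the SNORD rows and 0.39 over the SNORA rows. On deposited values, 12 rows rose and 4 fell, where 7.26% of all rows and 21.5% of rows above 8 rose, and 17.9% and 39.3% fell. The median change was then 0.15 over the 37, 0.36 over the SNORD rows and 0.03 over the SNORA rows. Of the SNORD rows 9 rose on the deposited scale, and of the SNORA rows 2 rose and 2 fell. Of the 28 rows, 8 rose and 3 fell on that scale.

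In SKOV3 cells, fewer rows passed the test. After normalization, 9 rows rose and 1 fell by the same test, where 7.25% of all rows rose and 7.11% fell, and among rows above 8, 20.4% rose and 19.1% fell. The 9 were 6 SNORD rows, SNORA18, SCARNA10 and MIR1974, and MIR1978 fell again. The median change was 0.27 over the 37 and 0.44 over the SNORD rows. On deposited values, 4 rows rose and 3 fell, where 3.83% of all rows and 12.4% of rows above 8 rose, and 14% and 27.3% fell. Of the 28 rows above 8 in arrays of both treatments, 8 rose and 1 fell after normalization, and 3 rose and 2 fell on deposited values. Without SKOV3 control replicate 1 or without SKOV3 control replicate 2, 2 of the 37 rose after normalization.

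The rows that rose in both lines after normalization were MIR1974, SCARNA10, SNORA18, SNORD16, SNORD25, SNORD36A, SNORD58B and SNORD80, of which SNORD25 had entered through miR-365a-3p arrays alone. MIR1974, SNORD16, SNORD25 and SNORD80 rose in both lines on both scales. Since MIR1974 and SNORD16 were singled out for their rise and SNORD25 entered through miR-365a-3p arrays, their calls are descriptions. The share of all rows that rose in both lines was not counted, so neither list can be called particular to these rows. In MDA-MB-231 cells alone, SNORA24, SNORA63, SNORD13, SNORD30, SNORD36A, SNORD3D, SNORD58B and SNORD65 also rose on both scales, SNORA24, SNORD13 and SNORD3D again having entered through miR-365a-3p arrays. The change had opposite signs on the 2 scales for 6 rows in MDA-MB-231 cells, which were SCARNA13, SNORA25, SNORA67, SNORA76, SNORA79 and SNORD110, and for 8 rows in SKOV3 cells. Among these was SNORA25, which in MDA-MB-231 cells differed by 0.36 (adjusted p = 0.0179 by limma) after normalization and by -0.0091 (adjusted p = 0.944) on deposited values. Replicate 1 of the miR-365a-3p arrays had the highest normalized value of its group for 29 of the 37 rows in the breast line and 31 in the ovarian line, and for 18 and 28 on deposited values. The same was not counted over all rows, so it cannot be called particular to the 37.

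**Figure D2:**
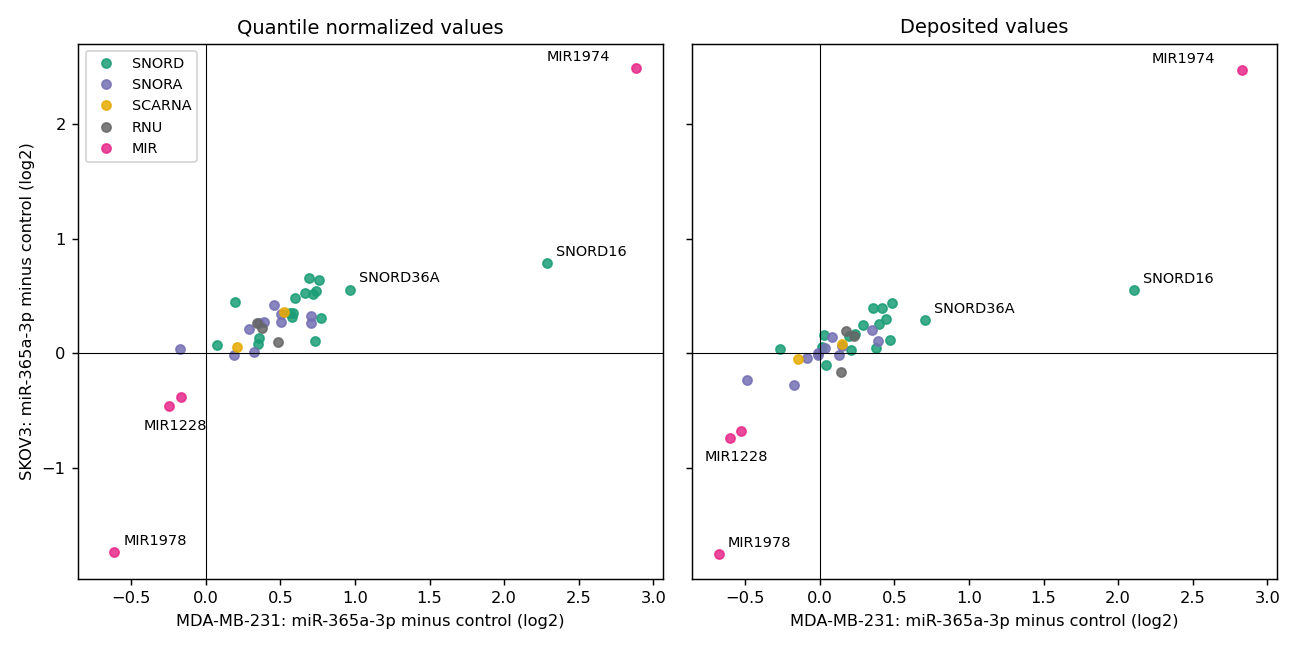
Difference of miR-365a-3p minus control (log2) of each of the 37 rows in MDA-MB-231 cells (horizontal) and SKOV3 cells (vertical), after quantile normalization (left) and on deposited values (right), coloured by class. Most rows move down and to the left from the left to the right panel, whereas MIR1974, SNORD16 and MIR1978 keep their places apart.

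MIR1974 had the largest difference between treatments of the 37 rows. It was singled out for its rise with earlier results of these data known, so its values carry no test. In MDA-MB-231 cells the normalized levels were 11.28, 10.89 and 11.04 with miR-365a-3p and 9.42, 7.53 and 7.60 with control miRNA. The SKOV3 levels were 10.42, 9.92 and 9.37 with miR-365a-3p and 7.41 and 7.41 with control miRNA. The groups did not overlap in either line, and 4 of the 5 control arrays were near the floor, with MDA-MB-231 control replicate 1 standing apart. The difference in MDA-MB-231 cells was 2.89, and 2.83 on deposited values, and that in SKOV3 cells 2.49 and 2.47. Without MDA-MB-231 control replicate 1 it was 3.51 in MDA-MB-231 cells.

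MIR1978, the other row of mitochondrial sequence, was lower with miR-365a-3p. In MDA-MB-231 cells its normalized levels were 10.26, 9.91 and 9.99 with miR-365a-3p and 10.21, 10.86 and 10.92 with control miRNA. In the SKOV3 arrays they were 9.17, 9.06 and 8.93 with miR-365a-3p and 10.77 and 10.82 with control miRNA. The groups stood far apart in SKOV3 cells and overlapped in MDA-MB-231 cells, where control replicate 1 lay among the miR-365a-3p arrays. The fall in SKOV3 cells was -1.74 ± 0.20 (SE, adjusted p = 0.000745 by limma), and -1.76 on deposited values. That in MDA-MB-231 cells was -0.61 ± 0.18 (SE, adjusted p = 0.0332 by limma). It missed the threshold without MDA-MB-231 control replicate 2 (adjusted p = 0.111) or 3 (0.117), without miR-365a-3p replicate 2 (0.11) or 3 (0.0904), and without either SKOV3 control (0.0533). The difference between the lines in this fall was -1.13, with an adjusted p of 0.0763 by limma. MIR1974 and MIR1978 thus moved in opposite directions in both lines, and in MDA-MB-231 control replicate 1 the first was high and the second low beside the other controls.

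SNORD16, a box C/D snoRNA that guides ribosomal RNA methylation, was the snoRNA row with the largest rise. In MDA-MB-231 cells its normalized levels were 10.36, 10.66 and 10.36 with miR-365a-3p and 7.98, 8.31 and 8.23 with control miRNA. For SKOV3 they were 8.70, 8.50 and 8.49 with miR-365a-3p and 7.80 and 7.75 with control miRNA. The groups did not overlap in either line, and each set of replicates lay close together. The rise in MDA-MB-231 cells was 2.29, and 2.11 on deposited values, and that in SKOV3 cells 0.79 and 0.55. Like MIR1974, the row was singled out for its rise, and no test is given for it. The response in SKOV3 cells minus that in MDA-MB-231 cells was -1.50, and -1.55 on deposited values, and this difference contains the rise for which the row was chosen. Of the other rows, 0 passed the test for a different response between the lines by limma on either scale (at an unadjusted p under 0.05, 6 of the 37 after normalization and 5 on deposited values, SNORD16 included), where the response was higher in SKOV3 cells for 1.3% and lower for 1.24% of all rows, and for 3.64% and 2.79% of the rows above 8. On deposited values the shares were 1.32% and 1.51% of all rows and 3.35% and 2.7% of the rows above 8.

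RNU6-15, the brightest of the RNU rows and listed in RefSeq as the pseudogene RNU6-15P, moved less. Its normalized levels in MDA-MB-231 cells ran from 9.96 to 10.21 with miR-365a-3p and were 9.97, 9.53 and 9.55 with control miRNA. In SKOV3 cells they were 10.10, 9.86 and 9.85 with miR-365a-3p and 9.64 and 9.80 with control miRNA. The groups overlapped by 1 array in MDA-MB-231 cells and did not overlap in SKOV3 cells. The differences were 0.38 ± 0.13 (SE, adjusted p = 0.0633 by limma) and 0.22 ± 0.14 (SE, adjusted p = 0.452). Without MDA-MB-231 control replicate 1, the difference in MDA-MB-231 cells was 0.52, with an adjusted p of 0.00794. RNU6-1, which RefSeq lists as an snRNA gene, differed by 0.34 and 0.27 in the 2 lines, with adjusted p-values of 0.108 and 0.356 by limma.

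**Figure D3:**
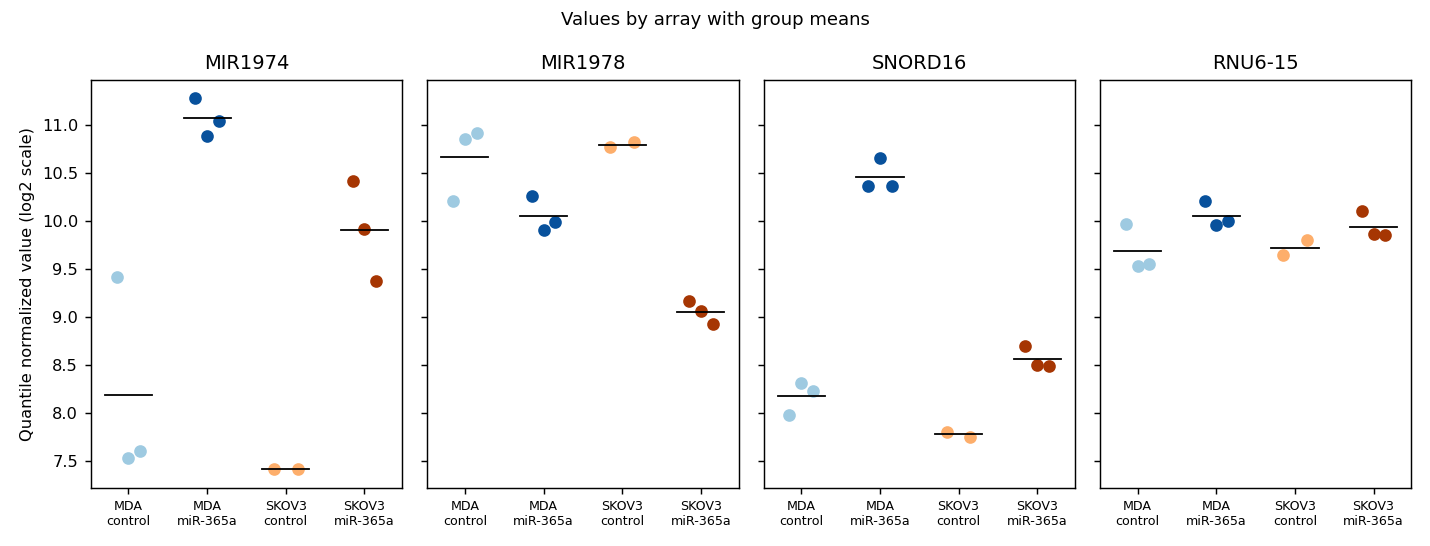
Quantile normalized values (log2 scale, vertical axis) of MIR1974, MIR1978, SNORD16 and RNU6-15 in each array, with black bars at the group means. MIR1974 and SNORD16 are higher and MIR1978 is lower with miR-365a-3p in both lines, MDA-MB-231 control replicate 1 departs from the other controls for MIR1974 and MIR1978, and RNU6-15 stays between 9.5 and 10.3.

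Among the box C/D rows that rose in both lines after normalization beside SNORD16, SNORD36A lies in an intron of RPL7A. Its normalized levels were 9.78, 9.47 and 9.48 with miR-365a-3p and 8.57, 8.77 and 8.48 with control miRNA in the MDA-MB-231 arrays. They were 8.72, 8.45 and 8.43 with miR-365a-3p and 8.03 and 7.92 with control miRNA in the SKOV3 arrays. The groups did not overlap in either line. The rise was 0.97 ± 0.11 (SE, adjusted p = 0.000405 by limma) in MDA-MB-231 cells and 0.56 ± 0.13 (SE, adjusted p = 0.0206) in SKOV3 cells. On deposited values the difference in SKOV3 cells was 0.29, with an adjusted p of 0.136. Without SKOV3 control replicate 1 or 2 the normalized one had an adjusted p of 0.0792 or 0.166.

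SNORD80 belongs to GAS5, a noncoding gene whose introns hold many snoRNAs. Its normalized levels were 9.15, 9.03 and 8.95 with miR-365a-3p and 8.29, 8.35 and 8.40 with control miRNA in the MDA-MB-231 arrays. They were 8.84, 8.47 and 8.57 with miR-365a-3p and 8.0 and 7.95 with control miRNA in the SKOV3 arrays. No array of one treatment reached the other in either line, and the rise was alike in size, with 0.69 ± 0.09 (SE, adjusted p = 0.00062 by limma) and 0.65 ± 0.10 (SE, adjusted p = 0.003). On deposited values the rises were 0.36 and 0.40, with adjusted p-values of 0.0118 and 0.017.

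SNORD25 belongs to SNHG1, another noncoding snoRNA host gene. Its normalized levels were 8.29, 8.24 and 8.07 with miR-365a-3p and 7.45, 7.54 and 7.46 with control miRNA in the MDA-MB-231 arrays. They were 8.35, 8.04 and 8.04 with miR-365a-3p and 7.62 and 7.63 with control miRNA in the SKOV3 arrays. All miR-365a-3p arrays were above the control arrays of their line, and the row entered the set through them alone, so the differences of 0.72 and 0.52 are a description.

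SNORD58B, from an intron of RPL17, was the row with the largest excess in SKOV3 controls. Its normalized levels were 8.29, 8.02 and 8.03 with miR-365a-3p and 7.40, 7.51 and 7.43 with control miRNA in the MDA-MB-231 arrays. They were 8.91, 8.42 and 8.66 with miR-365a-3p and 8.15 and 8.14 with control miRNA in the SKOV3 arrays. The rises were 0.67 ± 0.12 (SE, adjusted p = 0.0028 by limma) and 0.52 ± 0.13 (SE, adjusted p = 0.0284). On deposited values the difference in SKOV3 cells was 0.25, with an adjusted p of 0.163. Without SKOV3 control replicate 1 or 2, or miR-365a-3p replicate 3, the normalized one had an adjusted p of 0.138, 0.165 or 0.064.

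The rows SNORD13 and SNORD3D stand for snoRNAs that act in the cutting and maturation of ribosomal RNA precursors and have promoters of their own. Both passed 8 in miR-365a-3p arrays alone. SNORD13 had normalized levels of 8.55, 8.05 and 8.14 with miR-365a-3p and 7.69, 7.42 and 7.35 with control miRNA in the MDA-MB-231 arrays. For SKOV3 they were 8.63, 8.09 and 7.95 against 7.57 and 7.59, and no array overlapped in either line. The difference was 0.76 in the breast line and 0.64 in the ovarian line. SNORD3D differed by 0.74 and 0.55.

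SNORA61 was the brightest box H/ACA row and SCARNA10, which carries both kinds of box, the brightest Cajal body row. In MDA-MB-231 cells SNORA61 differed by 0.51 ± 0.13 (SE, adjusted p = 0.0224 by limma) after normalization and by 0.15 (adjusted p = 0.491) on deposited values. The normalized difference missed the threshold without MDA-MB-231 control replicate 1 (adjusted p = 0.0764) or 3 (0.0841), and without miR-365a-3p replicate 1 (0.0826) or 2 (0.0687). SCARNA10 had deposited levels of 8.33, 8.35 and 8.34 with miR-365a-3p and 8.16, 8.21 and 8.20 with control miRNA in the MDA-MB-231 arrays, which do not overlap. Its difference of 0.15 on that scale had an adjusted p of 0.201 by limma, and the normalized difference of 0.53 ± 0.08 (SE) one of 0.0012. Calls on both of these rows thus depended on the scale. SNORA76, which had entered through control arrays alone, differed by 0.19 after normalization and by -0.17 on deposited values in the breast line.

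The rows with a negative mean change over both lines after normalization were MIR1978, MIR1228, MIR586 and SNORA11D. MIR1228 had deposited levels of 7.67, 7.96 and 7.82 with miR-365a-3p and 8.07, 8.57 and 8.62 with control miRNA in the MDA-MB-231 arrays. The SKOV3 values were 8.21, 7.81 and 8.43 against 8.77 and 9.01. All control arrays were above the miR-365a-3p arrays of their line on this scale. The difference was -0.60 for MDA-MB-231 and -0.74 for SKOV3, with adjusted p-values of 0.049 and 0.0437 by limma, whereas after normalization it was -0.25 and -0.46, with adjusted p-values of 0.417 and 0.187. SNORA11D differed by -0.17 and 0.03 after normalization and by -0.49 and -0.24 on deposited values, and its fall in MDA-MB-231 cells on deposited values had an adjusted p of 0.0164 by limma.

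MIR1228 and MIR586 followed each other through all 11 arrays. Pearson's r between their deposited values was 0.994 (n = 11 arrays, which share their processing), and the gap between them was 0.16 at most, with a median of 0.05. This was the highest of the 666 correlations between pairs of rows, whose median was 0.303, and 8 pairs were above 0.95. The 2 genes lie on different chromosomes, and their hairpins, shown here because the rows follow each other, had no stretch of more than 7 bases in common. GC content was 75.3% in the first and 33.0% in the second. The hairpins are from RefSeq on GRCh38.p14, at chr12:57194504-57194576 on the plus strand and chr6:45197674-45197770 on the minus strand, with the mature sequences in capitals.
MIR1228: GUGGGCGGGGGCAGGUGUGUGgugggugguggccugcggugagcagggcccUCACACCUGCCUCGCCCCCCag
MIR586: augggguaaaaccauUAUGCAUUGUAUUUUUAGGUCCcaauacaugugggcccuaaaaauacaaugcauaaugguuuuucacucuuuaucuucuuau

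The row of the transfected miRNA's own precursor was outside the set, since only SKOV3 miR-365a-3p replicate 1 was above 8. MIR365-1, looked up after its values were known, had deposited levels of 7.83, 7.86 and 7.66 with miR-365a-3p and 7.68, 7.73 and 7.66 with control miRNA in the MDA-MB-231 arrays. The values for SKOV3 were 8.16, 7.77 and 7.83 with miR-365a-3p and 7.82 and 7.88 with control miRNA. The groups overlapped in both lines on this scale, with differences of 0.10 (adjusted p = 0.578 by limma) and 0.07 (adjusted p = 0.777). After normalization the levels in MDA-MB-231 cells were 8.17, 8.04 and 7.81 against 7.64, 7.64 and 7.58, which do not overlap, and the differences were 0.39 (adjusted p = 0.0679 by limma) and 0.31 (adjusted p = 0.251).

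Control cells of the lines were compared next. These arrays also enter the treatment comparisons. After normalization, 2 of the 37 rows were higher and 9 lower in SKOV3 than in MDA-MB-231 controls by limma, where 8.34% of all rows and 21.7% of the rows above 8 were higher and 7.76% and 20.6% lower. The rows higher in SKOV3 were SNORD58B, by 0.69, and SNORD89, by 0.53, and both had entered the set through SKOV3 arrays alone. The lower ones were SNORD30, SNORD36A, SNORD65, SNORD80, SNORD96A, SNORD110, SNORA25, SNORA63 and SCARNA13. Of these, SNORD30, SNORD65, SNORD96A, SNORD110, SNORA63 and SCARNA13 had entered through MDA-MB-231 arrays alone, so their place in the set rests on the line. Of the 21 rows above 8 in arrays of both lines, 0 were higher (0 also at an unadjusted p under 0.05 by limma) and 3 lower, which were SNORA25, SNORD36A and SNORD80. On deposited values, 4 rows were higher and 11 lower, where 12.3% of all rows and 24.4% of the rows above 8 were higher and 6.95% and 16.7% lower, and of the 21 rows 2 were higher and 3 lower. Without SKOV3 control replicate 1 or 2, 4 or 3 rows were lower after normalization.

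SNORD30, from SNHG1, differed most between the controls. Its normalized levels were 8.18, 8.80 and 8.55 in MDA-MB-231 controls and 7.53 and 7.56 in SKOV3 controls, with no overlap. The difference was -0.96, a description, since the row stood above 8 in the breast line alone. With miR-365a-3p the levels were 9.37, 9.20 and 9.28 in MDA-MB-231 cells and 8.01, 7.85 and 7.70 in SKOV3 cells. The response was 0.77 (adjusted p = 0.00389 by limma) in the first and 0.31 (adjusted p = 0.303) in the second. SNORD65 went the same way, with -0.65 between the controls and responses of 0.73 (adjusted p = 0.000736 by limma) and 0.10 (adjusted p = 0.716). The difference between the responses missed the threshold for both, with adjusted p-values of 0.417 and 0.0698. The SKOV3 values of SNORD65, from 7.34 to 7.58, lay at the floor, where a change can hardly be seen.

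**Figure D4:**
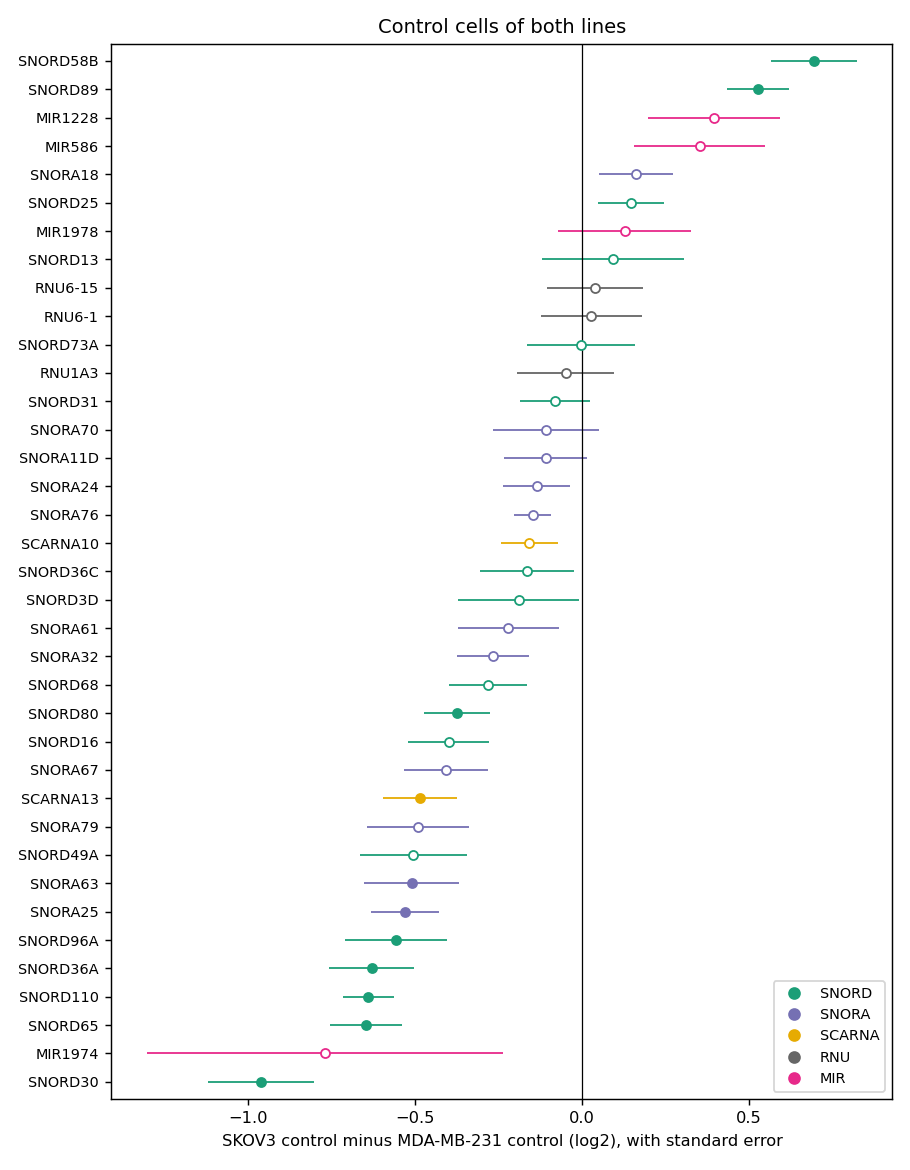
Difference of SKOV3 minus MDA-MB-231 control arrays (log2, normalized, horizontal axis) for each of the 37 rows with its standard error, coloured by class, with filled points for rows with an adjusted p under 0.05. SNORD58B and SNORD89 are the 2 filled points right of 0, and 9 filled points lie left of it, with SNORD30 farthest, and 8 of these 11 rows were above 8 in arrays of 1 line alone.

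Host genes gave a readout that did not enter the choice of rows. By RefSeq symbols, 32 of the 37 rows matched a current and 3 an older symbol, and MIR1974 and MIR1978 matched none. For 29 rows a gene with a row of its own spans the small RNA, and these had 23 different hosts, since TAF1D and SNHG1 hold 3 of the rows each and RPL7A and SNHG29 hold 2 each. Strand could not be compared for the snoRNAs. By limma, 8 host rows rose with miR-365a-3p in MDA-MB-231 cells and 2 fell, and in SKOV3 cells 4 rose and 2 fell, with median changes of 0.06 and 0.13. Of all rows above 8, 33.8% rose and 29.7% fell in the first and 20.4% rose and 19.1% fell in the second. Of all rows, 14.4% rose and 11.7% fell in the first and 7.25% rose and 7.11% fell in the second. After normalization, the share of hosts that rose was near that of rows above 8, and the share that fell was below it. Hosts were not held to the threshold of 8. On deposited values, 8 of the 23 hosts had a rise and 1 a fall in the breast line, against 4 and 1 in the ovarian line. Of rows above 8 on that scale, 21.5% had a rise and 39.3% a fall in the breast line. The ovarian line had 12.4% and 27.3%. The share of hosts with a rise was thus above that of rows above 8 on deposited values, and the share with a fall was below it.

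Some host rows moved with their snoRNA and others did not. SNHG1 rose by 1.2 ± 0.14 (SE, adjusted p = 0.00034 by limma) in MDA-MB-231 cells and 0.76 ± 0.15 (SE, adjusted p = 0.0113) in SKOV3 cells, beside SNORD25, SNORD30 and SNORD31. RPL17, a ribosomal protein gene, rose by 0.81 in MDA-MB-231 cells (adjusted p = 0.000152 by limma), beside SNORD58B, and differed by 0.30 (adjusted p = 0.0562) in SKOV3 cells, or 0.51 (adjusted p = 0.00984) on deposited values. RPL4, the ribosomal protein gene that holds SNORD16, in MDA-MB-231 cells differed by 0.10 ± 0.13 (SE, adjusted p = 0.706 by limma) and in SKOV3 cells by -0.02 (adjusted p = 0.968), from normalized control means of 13.2 and 12.4. On deposited values it rose by 0.41 (adjusted p = 0.0174 by limma) in the breast line and differed by 0.16 (adjusted p = 0.447) in the ovarian line. Other snoRNA rows of RPL4, looked up after their values were seen, were below the threshold. The highest of them, SNORD18C, had deposited levels of 7.89, 7.92 and 7.65 with miR-365a-3p and 7.28, 7.56 and 7.5 with control miRNA in the MDA-MB-231 arrays, and these did not overlap.

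RPL7A, host of SNORD36A, went the other way from its snoRNA in SKOV3 cells, with -0.41 (adjusted p = 0.0401 by limma), and differed by -0.22 (adjusted p = 0.175) in MDA-MB-231 cells. On deposited values its differences were -0.26 (adjusted p = 0.191 by limma) and 0.01 (adjusted p = 0.959). NCAPD2, a condensin subunit gene that holds SCARNA10, fell by 1.70 in MDA-MB-231 cells and fell by 1.15 in SKOV3 cells, with adjusted p-values of 1.61e-05 and 0.000398 by limma. The row of GAS5 was at the floor, with means from 7.35 to 7.43, and says little about SNORD80. Across the 29 pairs, the change of the snoRNA or miRNA row and that of its host had a Pearson's r of 0.10 and a Spearman's rho of 0.37 in MDA-MB-231 cells, with 0.0011 and -0.02 for SKOV3. For the difference between the controls, r was 0.62 and rho 0.50. Pairs share arrays and in part hosts, so these values are descriptions.

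**Figure D5:**
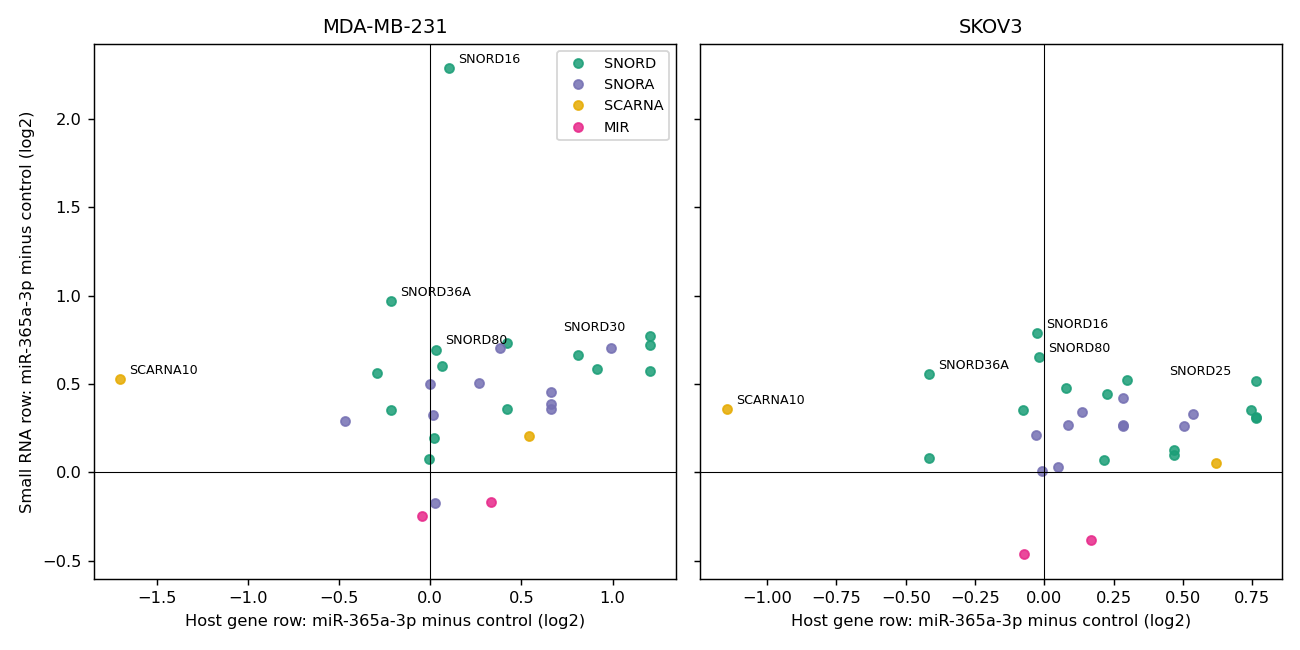
Difference of miR-365a-3p minus control (log2, normalized) of each host row (horizontal) and of the small RNA row it holds (vertical) in MDA-MB-231 cells (left) and SKOV3 cells (right), for 29 pairs coloured by class. SNORD16 is high over an RPL4 change near 0 on this scale, SCARNA10 lies far left, and the SNHG1 rows lie to the right.

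Many snoRNA host genes begin their transcripts with a C and a run of pyrimidines, a feature of genes for the translation machinery. In windows of 30 bases around the annotated starts (10 before and 20 after), a C at the start followed by at least 4 pyrimidines was present in 7 of the 23 hosts (30.4%) and in 1104 of 27305 windows of all genes (4.04%). The 7 were NCAPD2, TAF1D, SNHG12, EIF4A2, RPL7A, RPS3A and RACK1. Windows of the hosts of SNORD36A, SNORA18, SNORA61 and SNORD16 are shown with the run in capitals, from RefSeq on GRCh38.p14. They lie at chr9:133348208-133348237 on the plus strand, and at chr11:93741476-93741505, chr1:28581854-28581883 and chr15:66504836-66504865 on the minus strand. The window of RPL4 held no run at the annotated start base, which says only that the run is not at that base. A C followed by a run of pyrimidines stands a few bases downstream in the same window. It is in small letters because the count took the annotated start base alone, and the counts thus depend on that base.
RPL7A: attccctttcCTTTCTCTCTCCTCCCgccg
TAF1D: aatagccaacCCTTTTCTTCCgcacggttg
SNHG12: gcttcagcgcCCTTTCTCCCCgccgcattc
RPL4: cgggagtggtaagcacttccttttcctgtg

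Genes for the proteins that carry or make these RNAs were counted from lists. Among all rows above 8, 33.8% rose and 29.7% fell in the breast line and 20.4% rose and 19.1% fell in the ovarian line. Among all rows, 14.4% rose and 11.7% fell in the breast line and 7.25% rose and 7.11% fell in the ovarian line. Of the 4 box C/D core protein genes, 2 rose in the breast line and 1 in the ovarian line. NOP58, which encodes a core protein of box C/D particles, rose by 0.86 ± 0.11 (SE, adjusted p = 0.000491 by limma) and 0.81 ± 0.12 (SE, adjusted p = 0.00237) in the 2 lines. SNU13, listed under its older symbol NHP2L1, rose by 0.36 in MDA-MB-231 cells (adjusted p = 0.0183 by limma), and on deposited values differed by 0.10 (adjusted p = 0.70), so that 1 of the 4 rose on that scale. Of the 4 box H/ACA core protein genes, 2 fell in MDA-MB-231 cells: DKC1, the pseudouridine synthase, by -0.99 ± 0.29 (SE, adjusted p = 0.0319 by limma), and GAR1 by -0.47 ± 0.14 (SE, adjusted p = 0.0352). NOP10, another of the 4, differed by 0.49 (adjusted p = 0.0589 by limma) and 0.61 (adjusted p = 0.0625) in the 2 lines. On deposited values NOP10 rose by 0.67 (adjusted p = 0.0201 by limma) and 0.66 (adjusted p = 0.0491). Among 11 rows for snoRNP assembly and Cajal bodies, 2 rose and 4 fell in MDA-MB-231 cells and 1 rose in SKOV3 cells. The 4 that fell were SHQ1, NUFIP1, ZNHIT6 and NOLC1, by -0.50, -0.17, -0.47 and -0.73. ZNHIT3, which encodes an assembly factor of box C/D particles, was the row that rose in both lines, by 0.90 and 0.67.

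In the genes for the making of snRNAs and miRNAs, calls went both ways. Among 16 rows for snRNA transcription and the Integrator complex, which cuts the ends of snRNAs, 3 rose and 7 fell in MDA-MB-231 cells, while in SKOV3 cells 2 rose and 4 fell, with median changes of -0.18 and -0.01. INTS3 had differences of -0.83 (adjusted p = 0.000248 by limma) and -0.84 (adjusted p = 0.000871), and INTS12 of 0.95 (adjusted p = 0.00135) and 0.87 (adjusted p = 0.00698). Among 9 rows for miRNA processing, 1 rose and 6 fell in MDA-MB-231 cells, while in SKOV3 cells 1 rose and 3 fell, with median changes of -0.31 and -0.22. AGO2, the slicing Argonaute, listed as EIF2C2, had differences of -2.10 ± 0.15 (SE, adjusted p = 3.31e-05 by limma) and -1.09 ± 0.17 (SE, adjusted p = 0.00311). DICER1, which cuts miRNA precursors, had differences of -1.09 (adjusted p = 5.77e-05 by limma) and -0.31 (adjusted p = 0.0731), or -0.55 (adjusted p = 0.000816) for SKOV3 on deposited values. TARBP2, its partner, rose by 0.64 and 0.51 (adjusted p = 0.00116 and 0.012 by limma), and on deposited values the second was 0.24 (adjusted p = 0.123). In SKOV3 cells on deposited values, 7 of the 9 rows for miRNA processing fell and 0 rose. Of the 16 for snRNAs, 6 fell and 1 rose. On that scale 27.3% of rows above 8 and 14% of all rows fell, and 12.4% and 3.83% rose. In MDA-MB-231 cells on deposited values, 1 of the 9 rose and 6 fell, and of the 16, 2 rose and 10 fell. There 21.5% of rows above 8 and 7.26% of all rows rose, and 39.3% and 17.9% fell.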

How the data were processed

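RNA was taken up with a kit that keeps small RNAs, amplified to biotin-labelled cRNA and hybridized to Illumina BeadChips. The authors used lumi with quantile normalization and deposited log2 values, 1 per gene symbol and array. Not given in the sources used here are how probes were combined, whether background was removed and whether the scale is plain log2 or the variance-stabilizing one of lumi. Detection values were not used here, and precision is limited by the 11 arrays. All columns were mapped to a sample by their labels.

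Because the columns did not share a distribution, values were quantile normalized with limma 3.58.1 in R 4.3.3. A model with 4 group means was fitted to all rows (lmFit, eBayes) with two-sided tests, Benjamini-Hochberg adjustment over all rows and a threshold of 0.05. On simulated data with 200 rows changed by 1 on the log2 scale, 94.5% were recovered in each line, with 9 and 12 unchanged rows called.

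The rows, gene lists and tests were chosen with earlier results of these data known. Rows named singly are MIR1974 and SNORD16, the brightest of each class, the 8 with the largest rise and up to 8 with the largest fall by the mean of both lines, the 4 with the largest control difference, those whose response differed between lines, and 3 on each side of the threshold. Others are named as members of a count or, where stated, after their values were seen. A host is the smallest gene with a row whose RefSeq span (GRCh38.p14) holds the small RNA. INTS11 and WRAP53 had no row under those symbols. Tables and plots used Python 3.11.15, pandas 2.3.3, NumPy 2.4.6 and matplotlib 3.10.9.

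The alternatives were deposited values, median centring, cyclic loess within lines, each line alone, a replicate block, array weights, an intensity trend, rows above the median, thresholds of 7.5 and 9 for the rows, and each array left out. Rows with a deposited mean above 8, rows above 8 in arrays of both treatments and rows above 8 in arrays of both lines were added after seeing the data.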

Additional observations from a re-analysis of the deposited data

How the results depend on the processing

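Counts of rows that rose and fell in MDA-MB-231 cells were 24 and 1 after normalization, 12 and 4 on deposited values and 15 and 2 with each array centred on its median. Those for SKOV3 were 9 and 1, 4 and 3, and 5 and 2. For the controls, 2 were higher after normalization and 4 on the other scales. Array weights gave 15 rows that rose in SKOV3 cells, 16 lower in SKOV3 controls and 4 with different responses, against 9, 9 and 1. An intensity trend and the limit to rows above the median gave 3 with different responses each. With each line fitted alone, 3 rose in SKOV3 cells and 0 fell in MDA-MB-231 cells (1 at an unadjusted p under 0.05 by limma). With arrays left out singly, 16 to 26 rows rose and 0 to 1 fell in MDA-MB-231 cells, 2 to 12 rose and 1 fell in SKOV3 cells, 1 to 2 were higher and 3 to 12 lower in SKOV3 controls, and 1 to 2 differed in response. A count of 0 came without MDA-MB-231 control replicate 2 or 3, miR-365a-3p replicate 2 or 3, or either SKOV3 control, each with 1 row at an unadjusted p under 0.05. The count of 2 with different responses came without MDA-MB-231 control replicate 1 or 2 or miR-365a-3p replicate 3. The count of 1 higher in SKOV3 controls came without SKOV3 control replicate 1.

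A row threshold of 7.5 took in 131 rows, against 37 at 8. Of these 131, the breast line had 71 with a rise and 2 with a fall. The ovarian line had 12 with a rise and 3 with a fall, and responses differed for 4 rows. Shares among all rows at this threshold were not counted. A threshold of 9 gave 4 that rose in MDA-MB-231 cells and 3 for SKOV3, 0 higher in SKOV3 controls (0 also at an unadjusted p under 0.05 by limma, of 7 rows) and 2 lower. Of 19 rows with a deposited mean above 8, chosen after seeing the data, 13 rose in MDA-MB-231 cells, and 1 was higher and 5 lower in SKOV3 controls. On deposited values, 6 of these rose and 2 fell in MDA-MB-231 cells, 3 rose and 2 fell in SKOV3 cells, and 5 were lower in SKOV3 controls. Of the 28 rows above 8 in arrays of both treatments, also chosen after seeing the data, on deposited values 8 rose and 3 fell for MDA-MB-231, with 3 and 2 for SKOV3. Of the 21 rows above 8 in arrays of both lines, 0 were higher in SKOV3 controls (0 at an unadjusted p under 0.05) and 3 lower, and 3 were lower on deposited values. Cyclic loess within lines sets no common scale for the controls and gave no value for them.

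Deviations of same-numbered arrays from their group means correlated by -0.13, 0.04 and 0.21 for MDA-MB-231 and by 0.04 and -0.07 for SKOV3. Differently numbered arrays of MDA-MB-231 correlated by -0.46 to 0.34. The 2 SKOV3 controls deviate from their mean as mirror images. With so few arrays, these values show no pairing by replicate number and cannot exclude it. With the replicate number as a block, 25 rows rose and 0 fell in MDA-MB-231 cells (1 at an unadjusted p under 0.05), 7 rose and 1 fell in SKOV3 cells, 0 were higher (2 at an unadjusted p under 0.05) and 3 lower in SKOV3 controls, and 1 differed in response.

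Signs turned for rows with changes near 0. On deposited values and with median centring, the difference was -0.15 and -0.12 for SCARNA13 in MDA-MB-231 cells. For SKOV3 it was -0.054 and -0.016 for SCARNA13, -0.24 and -0.20 for SNORA11D, -0.16 and -0.12 for RNU1A3 and -0.10 and -0.064 for SNORD36C. It was -0.018 for SNORA11D under the block and -0.0039 for RNU1A3 with array weights. With arrays left out, it ran from -0.018 to 0.12 for SNORA11D, -0.0089 to 0.18 for RNU1A3 and -0.027 to 0.14 for SNORD36C. Of the other alternatives for single rows, 686 kept direction and side of the threshold, 51 lost the call and 25 gained it. The cause of these changes was not tested.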
